A study of Mus musculus with 4 samples.

Results

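Mesenchymal cells of the E15.5 molar region were compared between the upper and the lower jaw. Cells were selected on their own UMI counts (unique molecular identifiers, which count captured RNA molecules). A barcode was kept when it held at least 2000 UMIs, under 10% of them from mitochondrial genes, at least 10 UMIs per 10000 from the collagen genes Col1a1, Col1a2 and Col3a1 together, and no UMI of Epcam, Cdh1, Ptprc or Pecam1, which mark epithelium, leukocytes and endothelium. This rule kept 8117 of the 18832 barcodes of the 2 E15.5 libraries, 5254 of 10885 in the maxillary library and 2863 of 7947 in the mandibular library. The whole series held 56940 barcodes in 4 libraries.

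The study used wild-type C57BL/6J mice (labelled WTB6), without any treatment, and followed Wnt pathway genes through tooth morphogenesis. Single cells were prepared from maxillary and from mandibular molar tooth organs at E15.5 (written E15 in the age label) and at P1, with 6 tooth organs pooled into each library. There was 1 library per stage and jaw, so the spread between animals is unknown, and no p-value could be given. All intervals below are exact 95% intervals and cover counting error only. Jaw, library, dissection and captured cell number cannot be told apart in this design.

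The mesenchyme of the jaws derives largely from cranial neural crest. In the first pharyngeal arch, endothelin signalling in the lower part switches on Dlx5 and Dlx6 and through them Hand2, which gives the mandible its identity, whereas the maxillary part keeps Dlx1 and Dlx2 without Dlx5 and Dlx6 and expresses Pou3f3. Around the molar, the mesenchyme condenses under the influence of Msx1, Pax9, Lhx6 and Lhx8 into dental papilla and follicle, while bone, tendon and loose connective tissue form beside the tooth.

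The maxillary members held 57503825 UMIs, with a median of 10082 per cell, and the mandibular members 42159372 UMIs, with a median of 13721. Mitochondrial genes took 2.57% and 2.60% of these UMIs. Levels are given as UMIs per 1000000 UMIs of the members (CPM), and jaws are compared by the log2 ratio of the maxillary to the mandibular level, so that positive values are higher in the maxillary library. Levels at 1 end of each transcript were counted, so ratios compare jaws and not genes. A gene called the most abundant of its list had the most UMIs counted, which need not mean the most transcripts. Only 3 member barcodes occurred in both E15.5 libraries, out of 28 barcodes that these libraries shared.

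Mesenchymal genes that the rule did not read were abundant, such as Prrx1, a factor of craniofacial and limb mesenchyme, at 693 CPM in the maxillary and 512 CPM in the mandibular members and Dcn, the proteoglycan decorin, at 1181 and 1307 CPM. The rule also kept smaller groups of cells led by markers of other types. These were 128 maxillary and 58 mandibular Schwann glia-like cells, 74 and 60 pericyte-like cells and 61 and 101 muscle-like cells. A further 103 and 57 cells formed a cluster led by haemoglobin genes. That cluster also had the keratin genes Krt13, Krt15 and Krt4 among its 10 leading genes. Col1a1 stood at 3828 CPM in the maxillary and 3871 CPM in the mandibular library, and the 4 excluded genes stood at 0 by construction; these values chose the cells and were read no further. Of the cells inside the rule, 33 maxillary and 56 mandibular members lay between 10 and 12 collagen UMIs per 10000. Just outside it, 78 maxillary and 75 mandibular barcodes met every other condition but lay between 8 and 10. The listed epithelial and immune markers were low, and haemoglobin was not. Krt13, a keratin outside the list, stood at 20.9 CPM in the maxillary and 1.52 CPM in the mandibular members. The 14 epithelial markers summed to 75.2 CPM in the maxillary and 16.9 CPM in the mandibular members, with Krt18 the most abundant on the mean of the jaws and 1 at 0 in the mandibular members, and none averaged 10 CPM. The 11 immune markers summed to 40.0 and 29.1 CPM, and the 9 erythroid genes found in the files to 10794 and 12525 CPM, led by Hbb-bs at 5697 and 6645 CPM, or 1.08% and 1.25% of all UMIs for haemoglobin genes.

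Most genes stood at like levels in both jaws. Of the genes measured, 9466 averaged at least 10 CPM over the jaws. Their median log2 ratio was 0.03, and 8717 of them (92.1%) lay within 1.5-fold. Past 2-fold were 194 genes higher in the maxillary library, which is 2.05% of those compared, and 97 genes higher in the mandibular library, which is 1.02%. None of these 291 had an interval that crossed a log2 ratio of 0. Within 0.02 of the 2-fold line, 18 genes lay just inside and 19 just outside.

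**Figure D1:**
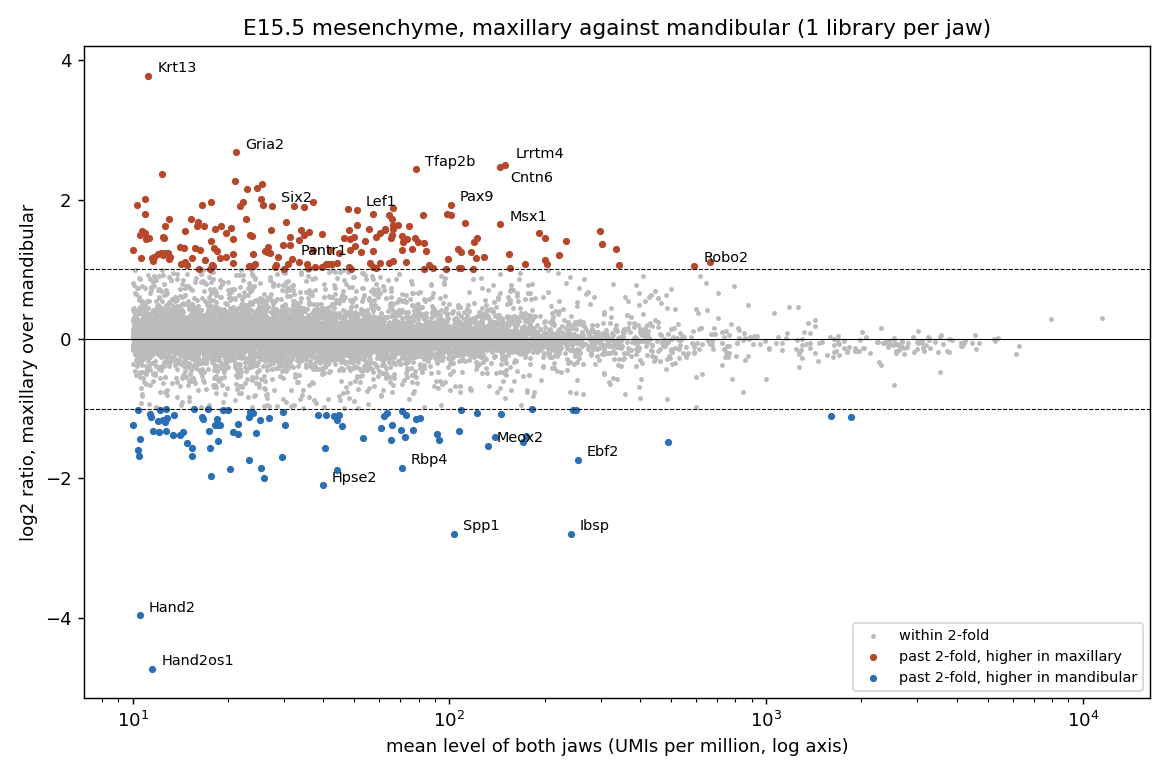
Each point is 1 of the 9466 genes averaging at least 10 CPM, with the mean level of the jaws (CPM, log axis) against the log2 ratio of maxillary to mandibular; dashed lines mark 2-fold. Hand2 and Hand2os1 stand apart at log2 ratios of -3.97 and -4.73, and Krt13 at 3.78.

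Hand2 and its antisense neighbour Hand2os1 gave the widest mandibular differences of these genes. Hand2, a basic helix-loop-helix factor of the mandibular arch, was counted 73 times in the maxillary members (1.27 CPM, interval 0.995 to 1.60) and 836 times in the mandibular members (19.8 CPM, interval 18.5 to 21.2). Its level was 15.6-fold higher in the mandibular library (log2 ratio -3.97, interval -4.33 to -3.62). Hand2os1, a long non-coding RNA, was counted 48 and 936 times, or 0.835 and 22.2 CPM, a 26.6-fold difference (log2 ratio -4.73, interval -5.18 to -4.31). At least 1 UMI of Hand2 was found in 1.08% of maxillary and 16.5% of mandibular members, and in 0.190% and 3.88% once every cell was thinned to 2000 UMIs. Among leukocytes of the same libraries, which should lack the gene, 0 of 331 maxillary and 2 of 221 mandibular cells (0.905%) held a Hand2 UMI, at median depths of 9542 and 13326 UMIs.

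The 2 genes lie on chromosome 8 and overlap on opposite strands. Hand2 runs from 57320983 to 57324633 on the forward strand and Hand2os1 from 57281117 to 57324233 on the reverse strand (GRCm38, GENCODE M21), an overlap of 3251 bp. The sources used here do not state whether counting used strand, so reads of the shared stretch may be split between them. In RefSeq the 250 bases before the start of Hand2 and the 250 bases before the start of Hand2os1 share 123 bp. The window before Hand2 is shown because the pair differed most between the jaws, and the window before Pou3f3, from the next pair of neighbours described, for comparison. Both are written 5′ to 3′ on the forward strand of GRCm38.p6 from RefSeq, chr8:57320733-57320982 and chr1:42695518-42695767. Capitals mark TAATTA, the core that many homeodomain factors such as Dlx and Msx proteins bind, and CATCTG, a form of the E-box that helix-loop-helix factors bind, each sought on both strands.

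Hand2: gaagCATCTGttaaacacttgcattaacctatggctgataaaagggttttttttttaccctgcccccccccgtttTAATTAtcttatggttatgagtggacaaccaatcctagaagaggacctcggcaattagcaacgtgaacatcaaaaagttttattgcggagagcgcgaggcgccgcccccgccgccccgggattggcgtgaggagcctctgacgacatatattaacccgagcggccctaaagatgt

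Pou3f3: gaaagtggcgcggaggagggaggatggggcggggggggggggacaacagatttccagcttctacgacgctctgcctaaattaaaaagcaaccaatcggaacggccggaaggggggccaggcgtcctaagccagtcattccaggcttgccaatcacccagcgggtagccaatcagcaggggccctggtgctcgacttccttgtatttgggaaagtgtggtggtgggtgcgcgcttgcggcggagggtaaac

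The Hand2 window held 1 TAATTA and 1 CATCTG, and the Pou3f3 window held neither. Of all 32851 windows of this length in the table, 4.84% held TAATTA and 14.4% held CATCTG. For genes averaging at least 10 CPM these shares were 2.35% and 9.33%. They were 3.02% and 7.54% for the windows of genes past 2-fold in the maxillary library, and 5.26% and 8.42% for those past 2-fold in the mandibular library, or 5 and 8 of 95 windows. A match describes the letters and is no evidence of binding.

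Pou3f3 and its divergent neighbour Pantr1 were higher in the maxillary library. Pou3f3, a POU-domain factor of the maxillary arch, stood at 39.4 CPM in the maxillary and 20.2 CPM in the mandibular members (log2 ratio 0.96, interval 0.85 to 1.08), just under 2-fold. Pantr1, a long non-coding RNA, stood at 43.8 and 19.7 CPM (log2 ratio 1.15, interval 1.04 to 1.27). Pou3f3 starts at 42695768 on the forward strand of chromosome 1 and Pantr1 at 42694842 on the reverse strand, 926 bp apart. A Pou3f3 UMI was found in 26% of maxillary and 18.4% of mandibular members, or 7.5% and 4.05% after thinning, and in 2 of 331 and 0 of 221 leukocytes.

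The Dlx genes differed by less than 2-fold. Dlx5 stood at 29.2 CPM in the maxillary and 33.8 CPM in the mandibular members (log2 ratio -0.21, interval -0.32 to -0.11), and Dlx6 at 13.3 and 20.1 CPM (log2 ratio -0.60, interval -0.74 to -0.45). Their intervals lay below 0. With each cluster of like cells given the same weight in both jaws, as described below, these differences were gone, at log2 ratios of 0.021 for Dlx5 and 0.046 for Dlx6. The 3 genes of the Dlx1 and Dlx2 locus were all higher in the maxillary library over all members without passing 2-fold, and nearer to level with clusters weighted alike (Dlx1 0.29, Dlx2 0.19, Dlx1as -0.035). Dlx1 stood at 31.2 and 16.4 CPM, its antisense gene Dlx1as at 14.9 and 8.40 CPM, and Dlx2 at 22.1 and 11.1 CPM (log2 ratio 0.99, interval 0.84 to 1.15). Dlx1 and Dlx1as overlap by 5869 bp on opposite strands, so their counts may not be separate.

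A list of 32 genes of mandibular identity held no common direction. Of 21 members averaging at least 10 CPM, 14 were higher in maxillary members, beside 57.6% of all genes compared, and 7 in mandibular members, with a median log2 ratio of 0.21 beside 0.03 for all genes. Hand2 and Hand2os1 were past 2-fold on the mandibular side. Msx1, a homeodomain factor of the early tooth mesenchyme, and Foxf1, a forkhead factor that answers Hedgehog signals, were past 2-fold on the maxillary side, Msx1 at 220 and 70.1 CPM and Foxf1 at 59.2 and 15.1 CPM. All genes had 2.05% past 2-fold on the maxillary and 1.02% on the mandibular side. Weighted by cluster, the median was 0.029, and Hand2 and Hand2os1 were the members past 2-fold, while Msx1 stood at 0.44 and Foxf1 at 0.32. Gsc stood at 12.5 and 18.5 CPM (log2 ratio -0.57) and Pitx1 at 62.7 and 89.9 CPM (log2 ratio -0.52).

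Over all members, more genes of the maxilla and upper face were past 2-fold on the maxillary than on the mandibular side. Of 25, 17 averaged at least 10 CPM. Of these, 11 were higher in the maxillary library, beside 57.6% of all genes compared, and the median was 0.41. Past 2-fold were 6 on the maxillary side and 1 on the mandibular side, beside 2.05% and 1.02% of all genes. With clusters weighted alike these counts were 1 (Pantr1) and 1 (Alx1), with a median of 0.29, and Tfap2b stood at 0.44, Cyp26b1 at 0.20, Eya1 at 0.31 and Aldh1a3 at -0.41. Tfap2b, an AP-2 factor, stood at 133 CPM in the maxillary and 24.6 CPM in the mandibular members (log2 ratio 2.43, interval 2.34 to 2.53). Six2 stood at 43.6 and 11.6 CPM, and Eya1, a transcriptional coactivator that partners Six2, at 87.9 and 41.2 CPM. Cyp26b1, which breaks down retinoic acid, stood at 28.8 and 9.32 CPM. Aldh1a3, which makes retinoic acid, went the other way with 27.3 and 60.9 CPM (log2 ratio -1.16, interval -1.25 to -1.07). Among the 8 palatal shelf genes measured, Meox2 was past 2-fold and higher in the mandibular library, at 67.8 and 196 CPM (log2 ratio -1.53, interval -1.59 to -1.48), whereas Osr2 stood at 91.2 and 47.8 CPM (log2 ratio 0.93). With clusters weighted alike, none of the 8 was past 2-fold, and Meox2 stood at -0.26 and Osr2 at 0.23. All 39 Hox genes averaged under 10 CPM, with 5.06 and 3.94 CPM in sum.

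**Figure D2:**
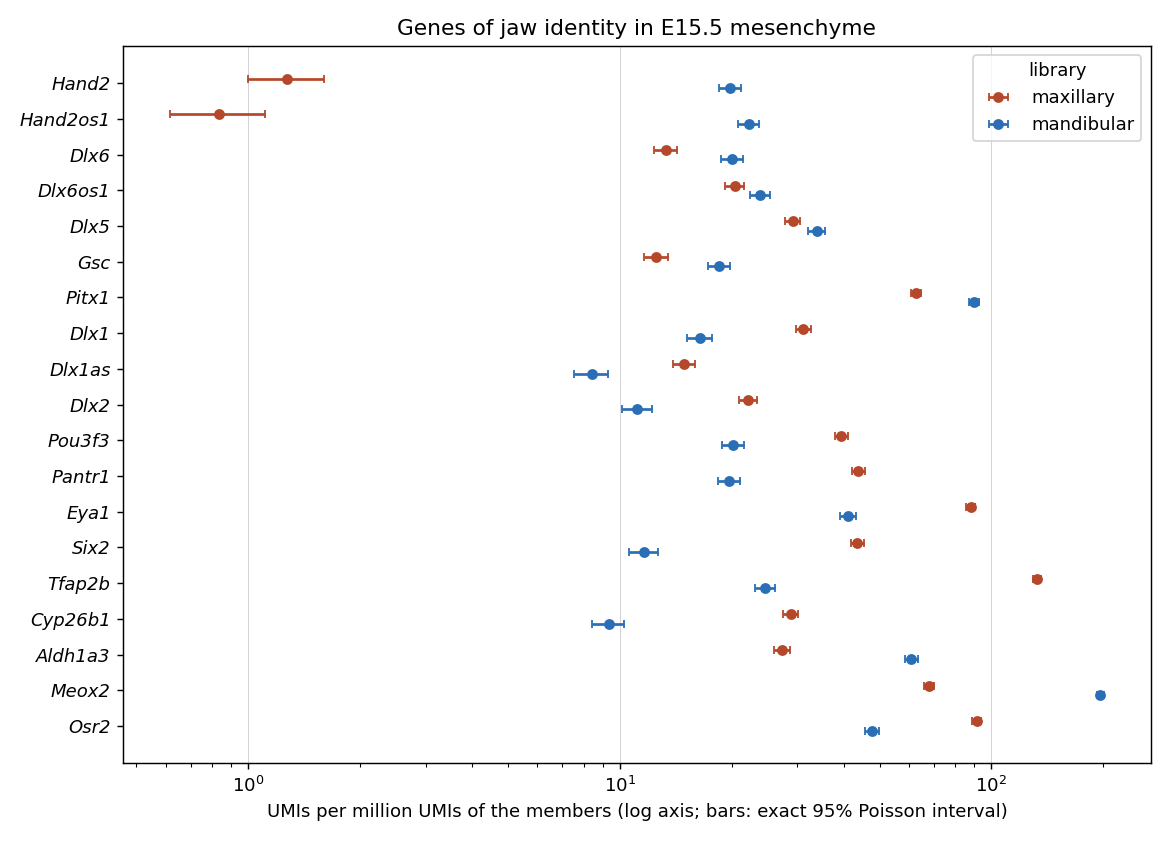
Levels of genes of jaw identity in the maxillary (red) and mandibular (blue) members, in CPM on a log axis, with exact 95% Poisson intervals of 1 library each. Hand2 and Hand2os1 are the only pairs of points over 10-fold apart, and Dlx5, Dlx6os1 and Dlx6 lie close together.

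Of genes averaging at least 20 CPM, the 12 highest in the maxillary library by the nearer bound of their interval included the odontogenic factors Pax9 and Lhx6 and the regulators Tfap2b, Foxf1 and Rorb. Gria2, an AMPA receptor subunit, stood at 36.8 CPM in the maxillary and 5.74 CPM in the mandibular members (log2 ratio 2.68, interval 2.49 to 2.88). Lrrtm4, a synaptic adhesion protein, stood at 255 and 45.1 CPM (log2 ratio 2.50), and Cntn6, a contactin of the neuronal surface, at 244 and 44.2 CPM (log2 ratio 2.46). Each of these was over 5-fold higher in the maxillary library over all members. With clusters weighted alike, their log2 ratios were 1.33, 0.99 and 0.64. Of 14 clusters compared, Lrrtm4 was past 2-fold on the maxillary side in 10 and Cntn6 in 8. Neither gene was past 2-fold on the mandibular side in any. Pax9, a paired-box factor needed for teeth to pass the bud stage, stood at 160 and 42.0 CPM (log2 ratio 1.93, interval 1.86 to 2.0). Lhx6, a LIM homeodomain factor, stood at 40.4 and 8.97 CPM (log2 ratio 2.17, interval 2.02 to 2.33). The chemokine gene Cxcl5, the galectin gene Lgals7, the proteoglycan genes Spock1 and Gpc5, Foxf1 and Rorb had log2 ratios from 1.96 to 2.27. Gria2 alone of the 12 stayed past 2-fold with clusters weighted alike. Lhx6 then stood at 0.65, Spock1 at 0.87, Cxcl5 at 0.53, Lgals7 at 0.44, Gpc5 at 0.36 and Rorb at 0.016. Single clusters still differed. Of 14 clusters, Lgals7 was past 2-fold on the maxillary side in 12, Lhx6 in 10, Foxf1 in 9, Spock1 in 7 and Gpc5 in 6. Of 13 with a ratio, Cxcl5 was so in 9 and Rorb in 7. On the mandibular side, Gpc5 was past 2-fold in 2 and Foxf1, Spock1 and Cxcl5 in 1 each.

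Free RNA differed in the same direction for some of these genes. In leukocytes, Lrrtm4 was counted 40 times in the maxillary library (10.6 CPM, interval 7.54 to 14.4) and 1 time in the mandibular library (0.299 CPM, interval 0.0076 to 1.67), Cntn6 39 and 4 times, and Pax9 26 times (6.86 CPM, interval 4.48 to 10.0) and 1 time. These levels were below those of the maxillary members by over 20-fold.

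The 12 genes highest in the mandibular library included bone matrix genes and genes of loose connective tissue. Ibsp, bone sialoprotein, stood at 60.8 CPM in the maxillary and 423 CPM in the mandibular members (log2 ratio -2.80, interval -2.85 to -2.75). Spp1, osteopontin, stood at 26.1 and 181 CPM (log2 ratio -2.79). Leukocytes also held Spp1, at 13.5 CPM in the maxillary and 130 CPM in the mandibular library, and the part of free RNA in the Spp1 ratio was not tested. Mmp13, a collagenase of forming bone, stood at 11.0 and 39.8 CPM, and Ifitm5, an osteoblast membrane protein, at 14 and 45.2 CPM. Ebf2, an early B-cell factor found in connective tissue, stood at 117 and 391 CPM (log2 ratio -1.74, interval -1.78 to -1.70). The non-coding gene 4930438E09Rik, whose span on chromosome 14 (67332042 to 67397742, reverse strand) lies within that of Ebf2 (67233292 to 67430918, forward strand), stood at 8.73 and 31.9 CPM. Hpse2, a relative of heparanase, stood at 15 and 64.5 CPM (log2 ratio -2.10), Rbp4, the carrier of retinol, at 30.7 and 111 CPM (log2 ratio -1.85) and Ccn3, a matricellular protein, at 19.0 and 69.6 CPM (log2 ratio -1.88). Entpd2, Tnxb and Meox2 completed the 12. Ibsp, Spp1 and Hpse2 alone of the 12 stayed past 2-fold with clusters weighted alike. Mmp13 then stood at -0.97, Tnxb at -0.87, Entpd2 at -0.66, 4930438E09Rik at -0.38, Ifitm5 at -0.38 and Ccn3 at -0.29. Within single clusters with a ratio, Tnxb was past 2-fold on the mandibular side in 6 of 11 and Mmp13 in 4 of 9. 4930438E09Rik was so in 4 of 12, Ccn3 in 4 of 14, Entpd2 in 3 of 11 and Ifitm5 in 2 of 11. On the maxillary side, Entpd2 was past 2-fold in 2 and Tnxb, Ccn3 and Ifitm5 in 1 each.

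Genes of the tooth mesenchyme were on balance higher in the maxillary library. Of 20 odontogenic mesenchyme factors averaging at least 10 CPM, 18 were higher there, beside 57.6% of all genes compared, and 9 were past 2-fold, beside 2.05%. No factor was past 2-fold on the mandibular side, and their median was 0.73 on the log2 scale. Besides Lhx6, Pax9 and Msx1, these were Lef1, a nuclear effector of Wnt signalling, at 79.8 and 22 CPM (log2 ratio 1.86), Lhx8 at 103 and 39.3 CPM, Foxd1, Inhba, Twist1 and Prrx2. Prrx1, the most abundant, stood at 693 and 512 CPM (log2 ratio 0.44), and Tnc, the lowest, at 105 and 148 CPM (log2 ratio -0.50). With clusters weighted alike, 1 of the 20, Foxd1, was past 2-fold, and the median was 0.13. Of 6 papilla genes measured, 2 were past 2-fold in the maxillary library (Lhx6 and Lhx8), while the 14 follicle genes had a median of -0.34, with Foxf1 and Pthlh past 2-fold in the maxillary and Sfrp4 in the mandibular library. Sfrp4 alone of both lists was past 2-fold with clusters weighted alike, and the medians were then 0.14 for papilla and -0.011 for follicle genes.

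Over all members, more Wnt pathway genes, the subject of the study, were past 2-fold on the maxillary than on the mandibular side. Of 61, 38 averaged at least 10 CPM. Past 2-fold were 10 in the maxillary library (Lef1, Frzb, Rspo1, Axin2, Sostdc1, Lgr5, Nkd2, Wnt5a, Nkd1 and Dkk3) and 3 in the mandibular library (Sfrp4, Fzd8 and Wnt2), beside 2.05% and 1.02% of all genes, with a median of 0.46. Among ligands, Wnt5a stood at 137 CPM in the maxillary and 61.6 CPM in the mandibular members (log2 ratio 1.15) and Wnt2 at 8.07 and 16.3 CPM (log2 ratio -1.01). Of the feedback targets, Axin2 stood at 35.1 and 12.6 CPM (log2 ratio 1.48, interval 1.34 to 1.62) and Nkd1 at 53.3 and 26.1 CPM. Of the secreted modulators, Rspo1, which enhances the signal, stood at 50.7 and 17.2 CPM, and the inhibitors Sostdc1 at 339 and 128 CPM and Frzb at 46.6 and 14.5 CPM, whereas Sfrp4 stood at 11.2 and 26.6 CPM (log2 ratio -1.24). Sfrp2, the most abundant on the mean of the jaws, stood at 806 and 432 CPM (log2 ratio 0.90). With clusters weighted alike, none of the 38 was past 2-fold on the maxillary side and 1, Sfrp4, on the mandibular side (log2 ratio -1.76), and the median was 0.056 beside 0.012 for all genes. Lef1 then stood at 0.67, Axin2 at 0.26 and Wnt5a at 0.19. Within single clusters with a ratio, Lef1 was past 2-fold on the maxillary side in 7 of 13, Axin2 in 4 of 14 and Wnt5a in 3 of 14. On the mandibular side, Axin2 was past 2-fold in 1.

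Other pathways differed in how many genes were past 2-fold, beside 2.05% of all genes on the maxillary and 1.02% on the mandibular side. Of 27 BMP and TGF-beta genes measured, 2 were past 2-fold in the maxillary library (among them Inhba, an activin subunit, at 91.0 and 42.1 CPM) and 1 in the mandibular library (Bmp5 at 8.05 and 17.7 CPM), with a median of 0.18. Of 30 axon guidance genes, 4 were past 2-fold in the maxillary library, among them Sema3e at 29.3 and 10.2 CPM and the most abundant on the mean of the jaws, the Slit receptor Robo2, at 801 and 386 CPM, and 1, Sema6d, in the mandibular library at 72.1 and 146 CPM. With clusters weighted alike, none of the BMP and TGF-beta or axon guidance genes was past 2-fold, with medians of -0.030 and 0.035. None of 13 FGF genes, 9 endothelin and Notch genes, 12 hypoxia and glycolysis genes, 20 S phase genes and 20 G2M phase genes measured were past 2-fold. A count of 0 in lists of 9 to 20 genes is near the share of all genes. The S phase and G2M medians were -0.03 and 0.02.

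Skeletal and connective tissue genes leaned to the mandibular library over all members, and less so or not at all with clusters weighted alike. The shares of all genes past 2-fold were 1.02% on the mandibular and 2.05% on the maxillary side. Of 13 osteoblast genes measured, 4 were past 2-fold there (Ibsp, Spp1, Mmp13 and Ifitm5) and 1, the proteoglycan gene Omd, in the maxillary library at 105 and 37.5 CPM, with a median of -0.33. Sparc, the most abundant, stood at 2214 and 2284 CPM. Of 15 connective tissue fibroblast genes, 4 were past 2-fold in the mandibular library (Gpx3, Ebf2, Clec3b and Mfap5) and 1, Twist2, in the maxillary library at 72.2 and 24.5 CPM. The tendon factor Scx stood at 19.6 and 40.3 CPM (log2 ratio -1.04) and was the 1 tendon gene of 7 past 2-fold. With clusters weighted alike, Ibsp, Spp1 and Gpx3 remained past 2-fold of the osteoblast and connective tissue genes. The medians over all members and weighted were -0.33 and -0.20 for osteoblast genes, -0.33 and -0.072 for connective tissue genes, -0.64 and -0.11 for tendon genes and -0.38 and 0.33 for cartilage genes, beside 0.03 and 0.012 for all genes. Of 12 cartilage genes, Col11a2 was past 2-fold in the mandibular and Matn4 in the maxillary library. With clusters weighted alike neither was, at 0.0047 and 0.37.

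**Figure D3:**
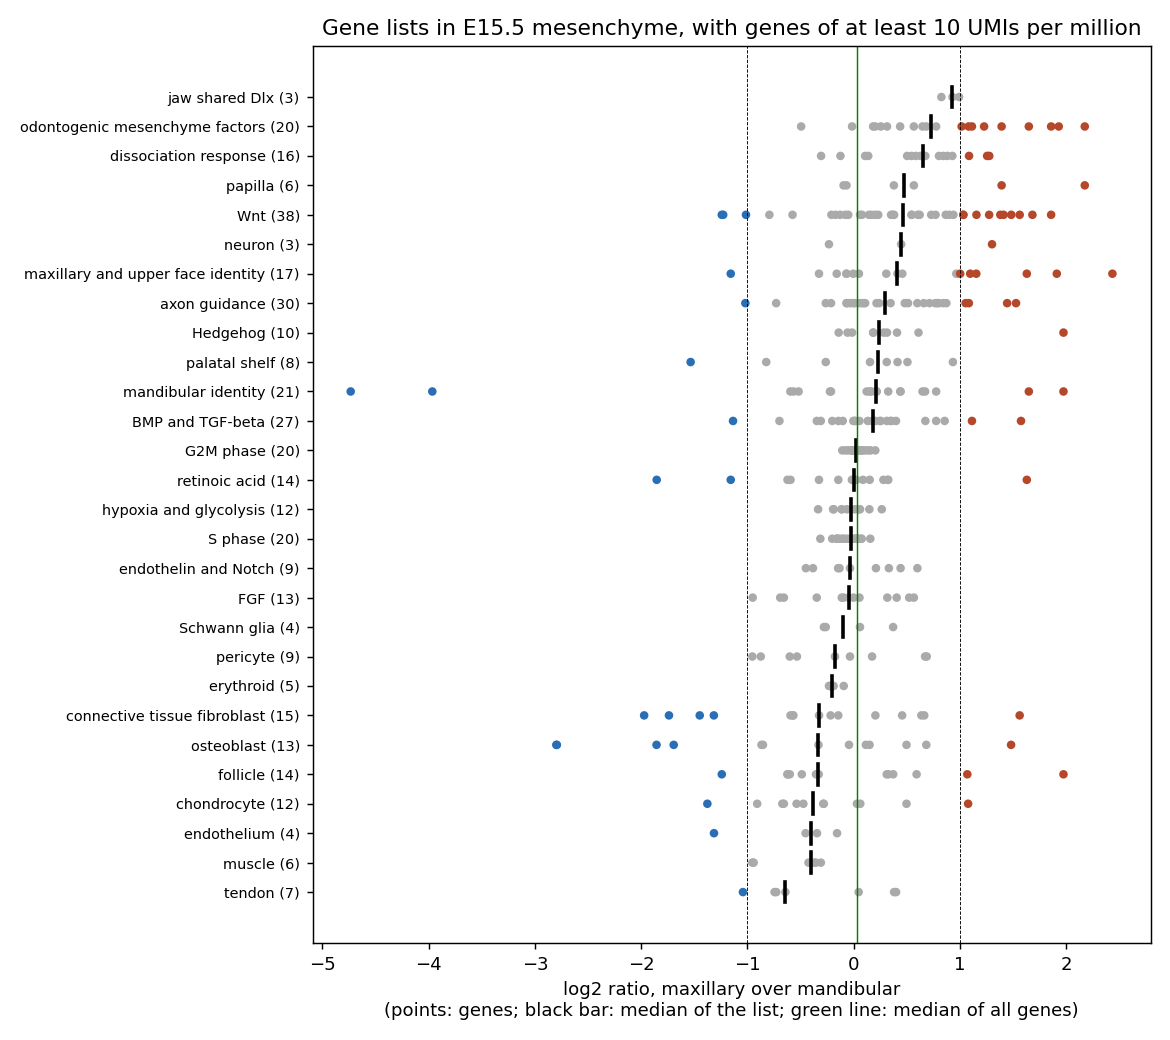
Log2 ratios of the members of each gene list that averaged at least 10 CPM (number in brackets), with red and blue points past 2-fold in the maxillary and mandibular library, the list's median (black bar) and the median of all genes (green line). Odontogenic and Wnt genes reach past 2-fold on the maxillary side, and osteoblast and connective tissue genes on the mandibular side.

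Signs of handling, and genes listed for other cell types, moved with the jaws. Of 16 early response genes that dissociation is known to induce, 14 were higher in the maxillary library, beside 57.6% of all genes, and 3 past 2-fold, beside 2.05% (Nr4a1 at 100 and 41.4 CPM, Btg2 and Dusp1), with a median of 0.65, against none past 2-fold and a median of 0.18 with clusters weighted alike. Fos, the most abundant, stood at 819 and 470 CPM. The part of dissociation in the other ratios was not tested. On the mandibular side, all 6 muscle genes measured were higher over all members (median -0.40, but 0.36 with clusters weighted alike), with Des at 18.0 and 34.9 CPM, as were all 4 endothelial genes (median -0.40, or -0.16 with none past 2-fold when weighted), with Ramp2 the most abundant at 90.3 and 115 CPM and Tek past 2-fold at 7.32 and 18.2 CPM, and 6 of 9 pericyte genes (median -0.18, or -0.073 when weighted), with Acta2 at 74.4 and 113 CPM. A Ramp2 UMI was found in 41.1% of maxillary and 54.5% of mandibular members. Tek was among the 10 leading genes of a cluster of members led by Ly6a, Mfap5 and Kank1. These genes are thus no sure sign of other cells. The part of such cells in these and the other ratios was not tested. Krt13, a keratin of oral epithelium chosen here after its value was seen, stood at 20.9 CPM in the maxillary and 1.52 CPM in the mandibular members, and at 49.1 and 1.50 CPM in leukocytes. Barcodes with epithelial UMIs and few collagen UMIs numbered 634 in the maxillary library against 95 in the other, with Krt13 at 2933 and 5368 CPM. The 6 sex-linked genes stayed within 2-fold, Xist at 391 and 398 CPM and the Y-linked Ddx3y at 54.1 and 42.6 CPM.

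To see which ratios also stood within like cells, the members of both jaws were clustered together without the jaw identity, palatal and sex-linked genes. Of 18 clusters, 14 held at least 50 cells of each jaw, with 4139 maxillary and 2751 mandibular members between them. Clusters were called tendon-like (1), Schwann glia-like (9), pericyte-like (16) and muscle-like (17) from at least 3 list markers among their 10 leading genes, and the others are named by number and leading genes. Cluster 13, led by Alx1, Fam162b and Pax3, held 285 maxillary cells and no mandibular cell, and cluster 14, led by Grin3a, Unc13c and Lrrc7, held 398 and 26. Cluster 15, led by Grm8, Rbp4 and Ntm, held 272 and 803. A cluster held mostly by 1 library may be that library and not a cell type. Genes that differ between the jaws took part in the clustering, so a cluster may itself hold a jaw difference.

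When each of the 17 clusters found in both libraries was given the same weight in both jaws (the mean of its shares of cells), far fewer genes remained past 2-fold. Of the 194 genes past 2-fold in the maxillary library 18 remained so, and of the 97 in the mandibular library 10 remained so. With 2 genes added, Alx1 and Prtg, the counts were 18 (0.19%) and 12 (0.127%) of 9466. Direction was kept for 178 of the 194 and 89 of the 97, and the medians moved from 1.35 to 0.42 and from -1.24 to -0.38. Hand2 (log2 ratio -3.92), Hand2os1 (-4.90), Hpse2 (-3.32), Ibsp (-1.63) and Spp1 (-1.59) remained on the mandibular side. On the maxillary side, Pantr1 (1.07), Gria2 (1.33) and Krt13 (3.55) were among those that remained. Pax9 (0.36), Msx1 (0.44), Tfap2b (0.44), Ebf2 (-0.24), Rbp4 (-0.32) and Meox2 (-0.26) did not. Within single clusters, Tfap2b was past 2-fold on the maxillary side in 12 of the 14 compared, and in none on the mandibular side. Leukocytes of the maxillary library, as given above, held Krt13 at a higher level than the members. The part of free RNA in the Krt13 ratio was not tested.

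**Figure D4:**
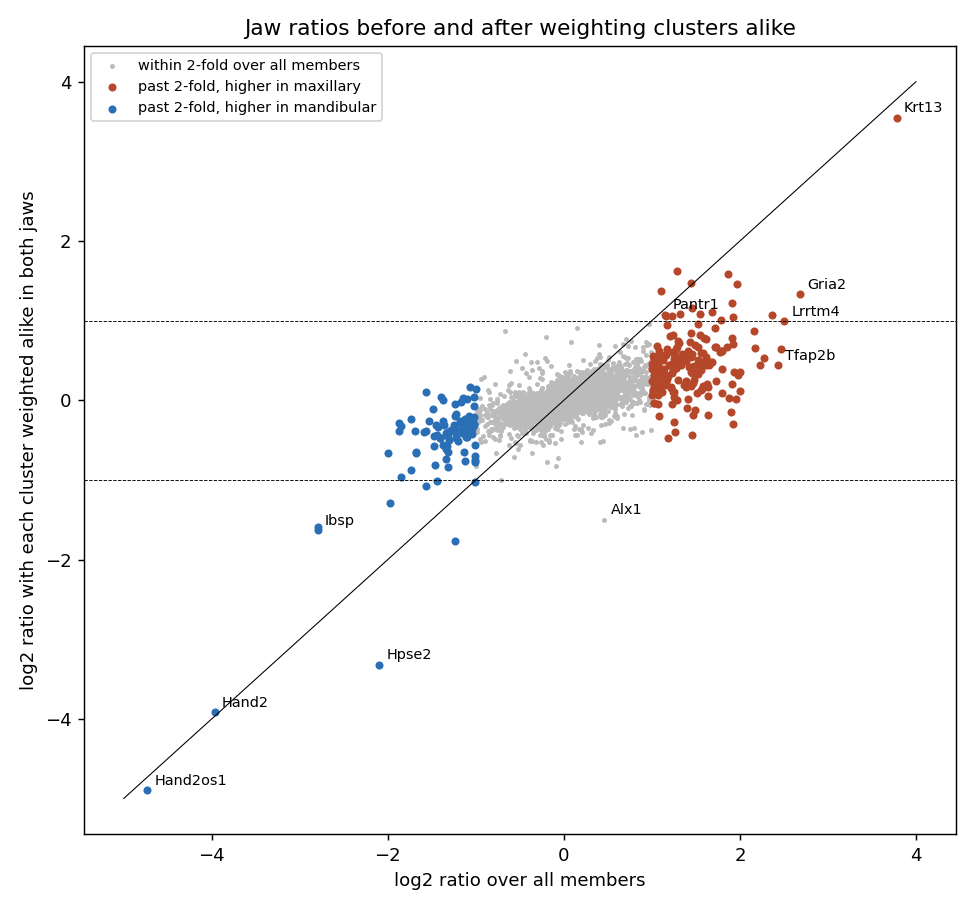
Each point is 1 of the genes averaging at least 10 CPM, with its log2 ratio over all members against the log2 ratio when each cluster has the same weight in both jaws; the diagonal marks equal values and dashed lines mark 2-fold. Most coloured points fall between the dashed lines, and Hand2, Hand2os1 and Krt13 stay close to the diagonal.

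Hand2 stood apart within clusters. Of the 14 clusters, 12 held enough Hand2 UMIs for a ratio, and all 12 were past 2-fold on the mandibular side; in clusters 8 and 9 both jaws were at or under 3 UMIs. In cluster 11, which had Plppr1, Krt18 and Krt8 among its 10 leading genes, Hand2 was counted 0 times in 427 maxillary cells and 184 times in 141 mandibular cells (116 CPM), a log2 ratio of -7.32 or lower against a floor of 3 UMIs in the maxillary members. Hand2os1 was counted 0 and 305 times there, 0 and 192 CPM. In cluster 2, led by Ly6a, Mfap5 and Kank1, Hand2 stood at 1.43 CPM in the maxillary and 27.3 CPM in the mandibular members, and in the cycling cluster 10 at 0.211 and 38.3 CPM. All 11 clusters with a ratio for Hand2os1 were also past 2-fold on the mandibular side.

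Pou3f3 and Pantr1 differed by jaw in some clusters and not in others. In cluster 11 Pou3f3 stood at 84.9 CPM in the maxillary and 5.65 CPM in the mandibular members (log2 ratio 3.91, interval 2.97 to 5.05), and Pantr1 at 95.7 and 5.65 CPM. In cluster 10 Pou3f3 stood at 50.3 and 5.31 CPM, in cluster 8, led by Cntn6, Cpa6 and Pappa2, at 57.5 and 16.0 CPM, and in cluster 18 at 24.6 and 2.32 CPM. It was level in cluster 2 at 22.6 and 23.5 CPM and in cluster 6, led by Mgst1 and Dpt, at 37.5 and 36.3 CPM. In the pericyte-like cluster 16 it was higher in the mandibular members, 18.2 and 57.4 CPM (log2 ratio -1.66, interval -2.63 to -0.77), with Pantr1 at 15.6 and 74.5 CPM. Pou3f3 was past 2-fold in 7 clusters on the maxillary side and in 1 on the mandibular side.

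Cluster 11, which also holds Lef1 at 404 and 197 CPM, contained other jaw differences. Hpse2 stood at 6.75 CPM in the maxillary and 775 CPM in the mandibular members (log2 ratio -6.84, interval -7.44 to -6.30). Alx1, an aristaless-like homeodomain factor of the midface, stood at 4.58 and 201 CPM. Dlx5 stood at 46.5 and 114 CPM, and Tfap2b at 285 and 53.4 CPM. The direction of Alx1 depended on the cells. Of 13 clusters with a ratio it was higher in the maxillary members in 9, past 2-fold in 6, and past 2-fold on the mandibular side in cluster 11 alone. Over all members Alx1 stood at 14 and 10.2 CPM (log2 ratio 0.46), and with clusters weighted alike at 5.62 and 15.9 CPM (log2 ratio -1.5), a weighting that also leaves out cluster 13, which Alx1 led and which had no mandibular cell. Leaving out cluster 13 alone gave a log2 ratio of -0.56.

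Tooth factors were level in some clusters and higher in the maxillary members of others. Pax9 stood at 213 CPM in the maxillary and 215 CPM in the mandibular members of cluster 8, at 155 and 173 CPM in cluster 11 and at 239 and 183 CPM in cluster 6. In the cycling clusters it stood at 139 and 15.9 CPM (cluster 5) and at 191 and 47.8 CPM (cluster 10), and in cluster 15 at 20.5 and 6.25 CPM. Of 14 clusters, 10 were past 2-fold on the maxillary side and none on the mandibular side. Leukocytes held 26 and 1 UMIs of Pax9, as given above, and the part of free RNA in the low values was not tested. Msx1 stood at 437 and 419 CPM in cluster 8 and at 127 CPM in both jaws in cluster 6. Lhx6 stood at 56.5 and 64.1 CPM in cluster 8 but at 101 and 17.0 CPM in cluster 11. Of 14 clusters, Msx1 was past 2-fold on the maxillary side in 6 and Lhx6 in 10. Neither gene was past 2-fold on the mandibular side in any.

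Connective tissue genes were near level in cluster 15, where Meox2 stood at 352 CPM in both jaws, Ebf2 at 684 and 735 CPM, and Rbp4 at 281 and 286 CPM, but not in all others. Of 14 clusters, Rbp4 was past 2-fold on the mandibular side in 7, and Ebf2 and Meox2 in 3 each, with intervals wholly on that side in 6 for Rbp4, 9 for Ebf2 and 8 for Meox2. Bone genes differed within cluster 18, which led with Ibsp, Spp1 and Col2a1 and held 83 maxillary and 150 mandibular cells. Ibsp stood there at 1420 and 5546 CPM (log2 ratio -1.97, interval -2.04 to -1.90) and Spp1 at 779 and 2234 CPM. This cluster mixed bone and cartilage genes, so its makeup may differ between the jaws. Without cluster 18, Ibsp over all members had a log2 ratio of 0.082. Of 12 clusters with a ratio, Ibsp was past 2-fold on the mandibular side in 8 and on the maxillary side in 2. Its intervals lay wholly on the mandibular side in 5 and on the maxillary side in 2.

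**Figure D5:**
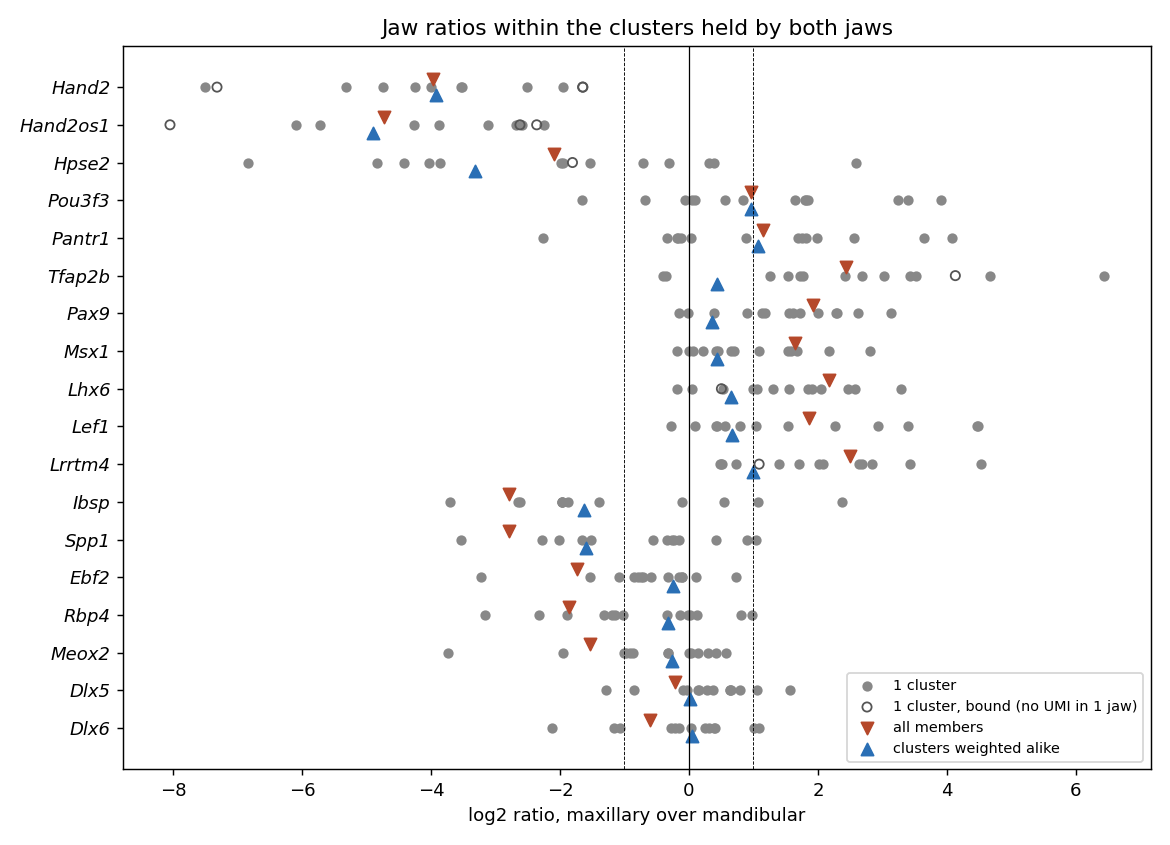
Log2 ratios of 18 genes in each of the 14 clusters with at least 50 cells per jaw (grey, open where a jaw had no UMI and the value is a bound), over all members (red) and with clusters weighted alike (blue). All points of Hand2 and Hand2os1 lie left of -1, while the blue marks of Pax9, Msx1, Ebf2 and Meox2 lie between -0.26 and 0.44.

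The same rule at P1 kept 7867 maxillary and 8158 mandibular members, in libraries that the choice of the 12 genes in each direction did not use. These libraries shared 7131 barcodes, 38.1% of the maxillary and 36.8% of the mandibular ones, against 28 to 70 for the other pairs of libraries, so P1 values are given with and without shared barcodes. The cause of the sharing was not tested, and if shared barcodes carry RNA of both libraries their ratios are not ratios of jaws. Without them 18.6% of the maxillary and 81.6% of the mandibular member UMIs were left, so the remaining cells are also not an even sample of the members. Hand2 again stood far apart, at 0.162 CPM in the maxillary and 7.17 CPM in the mandibular members (log2 ratio -5.46, interval -6.48 to -4.61), and -4.79 without shared barcodes. Hand2os1 had log2 ratios of -4.70 and -3.33. Pou3f3 had 1.19 and 1.46, and Pantr1 1.21 and 2.08. The direction of the jaw differences of both pairs of neighbours was the same at both stages, with and without shared barcodes.

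Of the 12 genes highest in the E15.5 maxillary library, 12 were higher in the P1 maxillary members and 7 past 2-fold, and 11 and 7 without shared barcodes. Of all 7167 genes averaging at least 20 CPM at E15.5, 62.5% were higher there and 0.781% past 2-fold, and 55.3% and 4.38% without shared barcodes. Cntn6 had a log2 ratio of -0.15 without them. Of the 12 highest in the E15.5 mandibular library, 11 were higher in the P1 mandibular members and 8 past 2-fold, with the same counts without shared barcodes, where Hpse2 was past 2-fold on the maxillary side. Of the 7167 genes, 37.5% were higher in the P1 mandibular members and 0.879% past 2-fold, and 44.7% and 2.79% without shared barcodes. Ebf2 had log2 ratios of -2.33 and -1.12, and Tfap2b of 1.42 and 2.39. Ibsp, at 121 and 169 CPM, had -0.48 and -0.89. The P1 libraries also differed in sex-linked genes, with Ddx3y at log2 ratios of 1.15 and 2.75 and Uty at 1.14 and 2.52, and Xist at -0.078 and -0.81, so the sex of the pooled animals may differ between the P1 jaws; its part in the P1 ratios was not tested. Some ratios turned with the shared barcodes. Dlx5 had 0.21 with them and -2.72 without, Msx1 0.43 and -0.14, and Gsc -0.18 and 1.20.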

How the data were processed

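Single-cell RNA-seq counts (Chromium 3′) were used as deposited. The authors aligned reads to mm10 with Cell Ranger 7.0.1 (per the file headers and their methods) and deposited whole-number UMI counts per gene and barcode, without normalization. Genes were identical in the 4 libraries. The members, the gene lists and the tests were chosen with earlier results of these data known.

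UMIs of the members were summed per library and scaled to CPM. Ratios carry exact binomial (Clopper-Pearson) 95% intervals and levels exact Poisson intervals, which cover counting error only; 3 UMIs were 0.0522 and 0.0712 CPM. A count of 0 was set to 3 UMIs, and no ratio was given when both counts were at or under 3. Ratios past 2-fold were counted among genes averaging at least 10 CPM. With 1 library per group no test across genes was possible.

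The text names, of genes averaging at least 20 CPM and outside the rule and sex-linked genes, the 12 in each direction whose nearer interval bound lay farthest from 0, members of the jaw and palatal lists past 2-fold, and the extreme and most abundant members of the other lists. Dlx1, Dlx1as, Dlx2, Dlx5, Dlx6, Pou3f3, Alx1, Gsc, Pitx1, Osr2, Krt13, Prtg and the further members named within counts lie outside that rule and were chosen after their values were seen.

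Members were clustered with scanpy 1.11.5 on 2000 variable genes, 30 components and 15 neighbours (Leiden, resolution 0.6, seed 0). Leading genes were ranked by fold with 5 CPM added. Doublets were left in, except in an alternative with Scrublet. Free RNA was read in barcodes with a Ptprc UMI, few collagen UMIs and no Epcam, Cdh1 or Pecam1 UMI. The ratio and its interval were tested on simulated data. Positions come from GENCODE M21 and windows from RefSeq, both on the build of the counts. A few genes are not reported here.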

Additional observations from a re-analysis of the deposited data

Results flagged for a closer look

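Of the 291 genes past 2-fold at E15.5, 7 had the opposite direction at P1 with and without the barcodes that the P1 libraries share, each interval on 1 side of 0. Of these, 2 are among the genes the naming rule gave. Hpse2 had a log2 ratio of maxillary to mandibular of -2.10 at E15.5 and 0.750 at P1, or 2.84 without the shared barcodes. Matn4, a matrilin, had 1.08 at E15.5 and -0.329 at P1, or -1.42 without them. With clusters weighted alike at E15.5, Hpse2 stood at -3.32, but Matn4 stood at 0.37 and was no longer past 2-fold. The difference between the stages was not tested, since there was 1 library per stage and jaw.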

How the results depend on the processing

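Counts of genes past 2-fold (194 on the maxillary and 97 on the mandibular side) moved by over 1.5 times when each cluster had the same weight in both jaws (18 and 12), with a minimum mean of 50 CPM (76 and 33), with no minimum beyond 3 UMIs (1791 and 1203), and with fold limits of 1.5 (487 and 262) and 4 (12 and 5). They stayed within 1.5 times under other limits on UMIs, mitochondrial share and collagen, stricter exclusion of other cell types, removal of doublets, TMM (edgeR 4.0.16) and median-of-ratios scaling, other totals, means over cells, thinning, and when clusters were left out. The scalings shifted all log2 ratios by -0.04 (TMM), -0.04 and -0.03. Of the 49 genes past 2-fold that the naming rule gave, 45 to 49 stayed past 2-fold under those alternatives, and 9 with clusters weighted alike. Ibsp reversed to 0.082 without the bone and cartilage cluster, an alternative chosen after seeing the data like the others that left clusters out, and Col11a2 reversed to 0.0047 with clusters weighted alike; the cause was not tested. No paired analysis was possible because the E15.5 comparison has 1 library per jaw, and the P1 libraries, which share barcodes, are another stage and not replicates. Depth limited the ratios to a median interval width of 0.19 on the log2 scale, wider for genes near 10 CPM.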
